A study of Homo sapiens with 78 samples.

Results

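The T cell receptor gene segments are the genes that GENCODE assigns to the biotypes TR_C, TR_V, TR_J and TR_D, and they were found by joining the transcript identifiers of the deposited tables to GENCODE v44. Of 197 such genes in the annotation, 195 were among the quantified targets, out of 62913 genes or unmatched targets in all. They comprised 6 constant (C), 106 variable (V), 79 joining (J) and 4 diversity (D) genes, each with 1 target. Total RNA of single cells was measured in Jurkat clone E6-1, a human T cell leukemia line, and in A375, a human melanoma line, taken here as the cell type that should lack rearranged receptor genes. Jurkat cells were grown in RPMI medium, labelled with an antibody to CD81 and sorted into lysis solution. A375 cells were grown in DMEM, labelled with an antibody to CD47 and sorted into PBS, so that cell line, medium, antibody and sorting buffer cannot be told apart. None of the 4 groups was treated. Each line was processed with the Pico Input kit of the SMARTer Stranded series (version 2, #634413) and with the SMART-Seq Stranded Kit (#634444). The paper describes pooling of samples during preparation for kit #634444 and states that cells of kit #634413 followed the same procedure with their own reagents. The design gave 18 Jurkat and 21 A375 wells per kit, 78 wells in all, each sorted to hold 1 cell. No label named separate cultures, so each group counted as 1 sample and no test between groups was possible.

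A T cell receptor is a pair of chains, alpha with beta or gamma with delta, and each chain is encoded by segments that lie far apart in the germline. During T cell development a V and a J segment, with a D segment between them in beta and delta chains, are joined in the genome by the RAG recombinase, and the joined exon is spliced to a C gene. The V and J segments carry the antigen-binding part of the chain, and the C gene carries the membrane anchor through which the chain is held in the CD3 complex. A T cell clone therefore carries its own V and J segments in all daughter cells. The Jurkat receptor is known from earlier sequencing of the line to use TRAV8-4 with TRAJ3 for the alpha chain and TRBV12-3 with TRBJ1-2 and TRBC1 for the beta chain, and this background set the points from which positions are given here.

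The germline sequences that carry the results are shown first, because near-identical copies limit how reads can be divided between genes. All are read from hg38 on the plus strand, 5′ to 3′. The V exons of TRBV12-3 (chr7:142560634-142560931) and of its neighbour TRBV12-4 (chr7:142563948-142564245), both wholly coding, are 298 bases long and differ at 6 bases, which are in capitals.
TRBV12-3: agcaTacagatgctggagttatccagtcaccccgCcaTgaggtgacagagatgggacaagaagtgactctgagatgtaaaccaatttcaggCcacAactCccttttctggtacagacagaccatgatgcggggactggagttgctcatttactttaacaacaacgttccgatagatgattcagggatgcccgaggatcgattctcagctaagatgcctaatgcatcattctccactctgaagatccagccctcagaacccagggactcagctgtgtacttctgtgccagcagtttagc
TRBV12-4: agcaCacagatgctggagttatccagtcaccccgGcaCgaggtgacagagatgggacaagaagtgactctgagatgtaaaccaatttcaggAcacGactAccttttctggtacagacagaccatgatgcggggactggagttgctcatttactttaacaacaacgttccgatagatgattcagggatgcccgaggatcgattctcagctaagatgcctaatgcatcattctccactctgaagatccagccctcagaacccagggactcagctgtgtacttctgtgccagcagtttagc

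The V exon of TRAV8-4 (chr14:21894736-21895030) is 295 bases long and differs from that of TRAV8-2 at the 13 bases in capitals.
TRAV8-4: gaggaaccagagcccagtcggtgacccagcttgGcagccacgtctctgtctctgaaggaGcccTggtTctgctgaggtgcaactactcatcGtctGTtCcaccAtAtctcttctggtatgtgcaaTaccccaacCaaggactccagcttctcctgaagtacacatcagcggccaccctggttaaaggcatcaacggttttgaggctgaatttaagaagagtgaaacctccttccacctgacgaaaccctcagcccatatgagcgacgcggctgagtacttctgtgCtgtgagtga

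The first exons of the beta constant genes TRBC1 and TRBC2 differ at 7 of 387 coding bases. Their first 120 bases (chr7:142791694-142791813 for TRBC1 and chr7:142801041-142801160 for TRBC2) hold 5 of these differences, shown in capitals.
TRBC1: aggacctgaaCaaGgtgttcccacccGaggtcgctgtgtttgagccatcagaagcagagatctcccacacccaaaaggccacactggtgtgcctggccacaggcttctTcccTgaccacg
TRBC2: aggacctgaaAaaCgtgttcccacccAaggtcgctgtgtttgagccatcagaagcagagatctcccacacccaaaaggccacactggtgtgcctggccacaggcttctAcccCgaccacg

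The J genes of the first beta cluster are shown because their order along the chromosome recurs in the results. They span chr7:142786880-142786927 (TRBJ1-1), chr7:142787017-142787064 (TRBJ1-2), chr7:142787630-142787679 (TRBJ1-3), chr7:142788225-142788275 (TRBJ1-4), chr7:142788498-142788547 (TRBJ1-5) and chr7:142788988-142789040 (TRBJ1-6), and TRAJ3 spans chr14:22543179-22543240. The capitals mark the conserved phenylalanine-glycine motif of J segments, spelled as TT, any base, GG, any 4 bases and GG and searched on the coding strand and found in 72 of the 79 J genes (91.1%).
TRBJ1-1: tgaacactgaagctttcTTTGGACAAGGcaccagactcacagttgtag
TRBJ1-2: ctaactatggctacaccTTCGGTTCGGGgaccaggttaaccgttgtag
TRBJ1-3: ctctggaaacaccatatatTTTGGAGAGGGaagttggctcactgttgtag
TRBJ1-4: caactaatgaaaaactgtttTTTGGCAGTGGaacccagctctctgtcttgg
TRBJ1-5: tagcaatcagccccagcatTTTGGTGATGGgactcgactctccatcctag
TRBJ1-6: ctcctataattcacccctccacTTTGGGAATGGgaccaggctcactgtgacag
TRAJ3: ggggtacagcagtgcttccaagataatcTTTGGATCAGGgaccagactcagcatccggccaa

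Reads that fall in shared stretches must be divided by the quantifier. Over all GENCODE transcripts, 65.1% of the 31-base words (the default word of Kallisto, whose setting is not given in the sources used here) of TRBC1, 65.0% of those of TRBC2, 48.5% of those of TRBV12-3 and 52.4% of those of TRAV8-4 occurred in no other GENCODE gene. The corresponding shares were 83.8% for TRBV7-2, 86.4% for TRBV7-3 and 100% for TRAC and the printed TRBJ1 genes. The split between TRBC1 and TRBC2, and between TRBV12-3 and TRBV12-4, is thus an estimate of the quantifier rather than a count of reads that belong to 1 gene. A J target is 46 to 69 bases long, and the 4 D targets, 8 to 13 bases long, are shorter than such a word and had no counts. Levels are given as CPM, the estimated counts of a gene per 1000000 estimated counts of the same well or group.

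Well totals ran from 413959 to 1443975 estimated counts in Jurkat and from 909 to 2567265 in A375, where 9 wells stayed under 25% of the overall median of 813697. Of these, 6 held 909 to 2373 counts and 28 to 596 detected genes, and A375 is therefore counted in wells rather than cells. No pair of the 3003 possible pairs of wells held identical values. The identity of the lines was checked with 12 T cell markers, 9 of them outside the receptor genes, and 12 melanoma markers. All 12 T cell markers, TRAC, TRBC1 and TRBC2 among them, were at least 4-fold higher in Jurkat in both kits. Of all genes tested, 14.6% were higher by that measure with kit #634413 and 12.7% with kit #634444. At least 4-fold lower were 8 of 11 melanoma markers with enough counts in kit #634413 and 7 of 9 in kit #634444. Of all genes tested, 31.2% were lower by that measure with kit #634413 and 26.7% with kit #634444. The sum of these 12 T cell markers ranged from 893 to 2278 CPM in Jurkat wells and from 0 to 60.6 CPM in A375 wells of kit #634413. In kit #634444 the ranges were 1274 to 2875 CPM and 0 to 51.9 CPM. Without TRAC, TRBC1 and TRBC2, which are themselves under study, the 9 other markers summed to 663 to 1441 CPM in Jurkat wells with kit #634413. A375 wells of that kit reached 32.3 CPM. Summed B cell markers stayed at or under 95.2 CPM in all wells, and NK cell markers reached 135 CPM in Jurkat and 421 CPM in A375.

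All 36 Jurkat cells held counts of at least 1 receptor gene, and 7 of 42 A375 wells did (6 of the 33 with at least 25% of the median total). A gene was called detected in a well with at least 1 estimated count. The summed receptor genes reached 524 CPM in Jurkat with kit #634413 (lowest well 48.6, median 520, highest 1495) and 568 CPM with kit #634444 (75.5, 556 and 1079). In A375 they reached 2.76 and 0.743 CPM, and the median well was at 0 with both kits. In kit #634413, 3 of 21 A375 wells had a receptor gene (14.3% [3.05, 36.3; 95% exact binomial interval]), and in kit #634444, 4 of 21 did (19.05% [5.45, 41.9]). The intervals here and below cover counting error only, since reads amplified by PCR are not independent molecules.

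Over both kits, 54 of the 195 genes were detected in a Jurkat cell and 139 had no counts in any. A Jurkat cell held between 2 and 29 receptor genes, with a median of 5.5 in kit #634413 and 8 in kit #634444. Among the 54 were both beta constant genes, the alpha constant gene and 1 gamma constant gene, 10 of 45 TRAV, 16 of 49 TRBV, 4 of 9 TRGV and 1 of 3 TRDV genes. Also among them were 8 of 56 TRAJ and 11 of 14 TRBJ genes, and no TRGJ, TRDJ or D gene. Of the V genes, 6 of the 10 TRAV and 10 of the 16 TRBV genes were seen in 1 cell each.

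Across all genes with at least 10 counts over both lines, 14.6% were at least 4-fold higher in Jurkat with kit #634413 (3490 of 23838) and 12.7% with kit #634444 (3176 of 25029). Of the receptor genes 21 and 19 reached 10 counts, and 20 and 18 of these were at least 4-fold higher, with none lower. The exceptions were TRBJ2-1 in kit #634413 and TRAV18 in kit #634444, both with 10 counts and none in A375. A receptor gene could reach the minimum through Jurkat alone, since A375 had no more than 36 counts of any, so the counts follow from the minimum and are given as a description. The median log2 difference was 4.65 and 4.36 over these genes, with A375 at the floor of 3 counts for nearly all, against -0.45 and -0.38 over all genes tested.

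**Figure D1:**
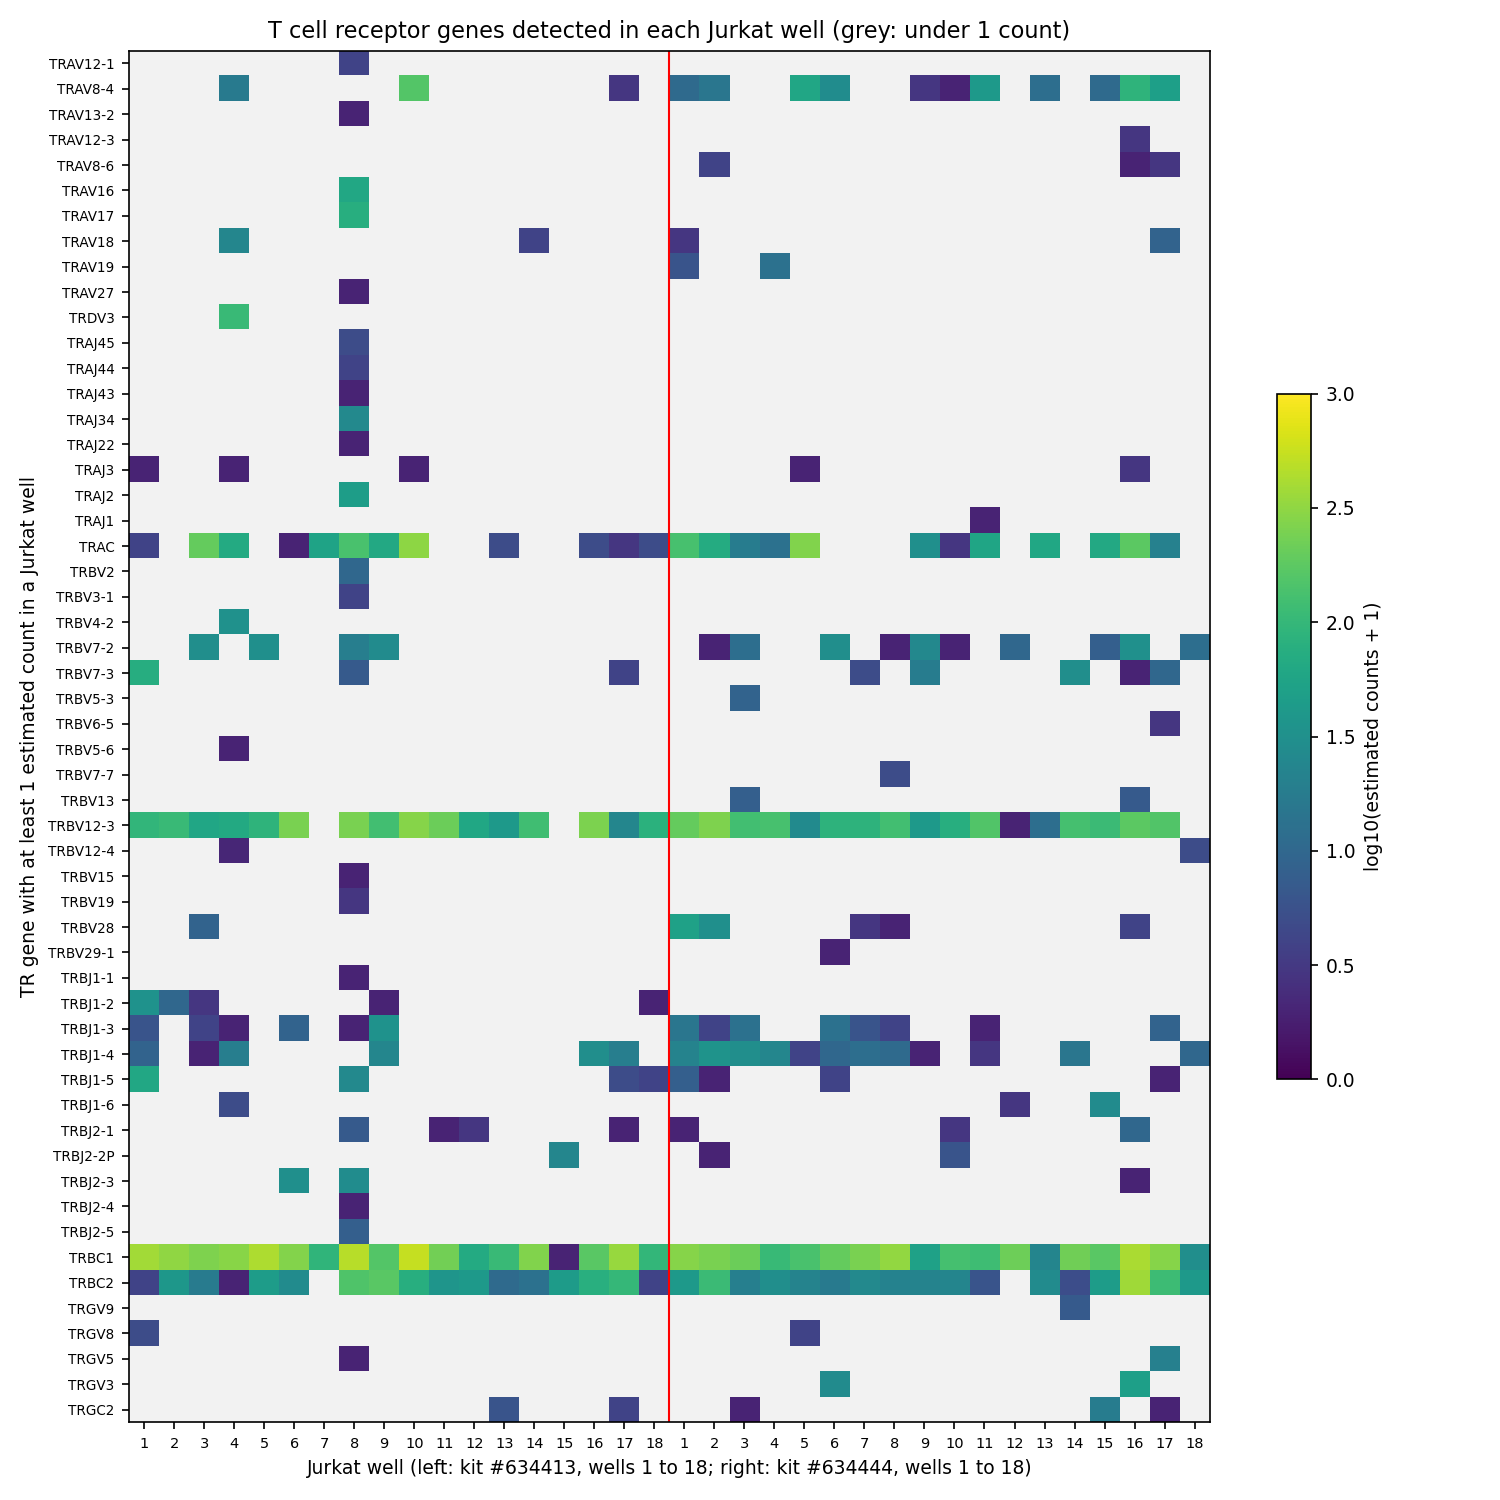
Receptor genes by cell. Rows are the 54 genes with at least 1 estimated count in a Jurkat well, columns the 18 wells of each kit (red line between kits), colour the log10 of estimated counts plus 1, grey under 1 count. The TRBC1, TRBC2 and TRBV12-3 rows are filled almost throughout, TRAC in 12 of 18 wells per kit, TRAV8-4 in 3 and 11, and well 8 of kit #634413 stands apart with 29 genes.

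Well 8 of kit #634413 (wells are numbered in accession order) stood apart from all other Jurkat wells. It held 29 receptor genes, where the next highest well of that kit had 14 and the next highest of all had 15. Of these 29 genes, 18 were seen in no other Jurkat cell, 9 V and 9 J genes with 246 counts together, among them TRAV17 (75 counts), TRAV16 (62), TRAJ2 (46) and TRAJ34 (25). The well also held TRBV12-3 (250 counts), TRBC1 (473) and TRAC (136), and no TRAV8-4. Its T cell markers outside the receptor genes summed to 1431 CPM (other wells of the group 663 to 1441), its melanoma markers to 18.96 CPM (0 to 382) and its B cell, NK and monocyte markers to 48.0 CPM (0 to 135). Without this well 36 rather than 54 genes were detected in Jurkat, and in kit #634413 24 rather than 43. Results that rest on it are given with and without it.

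TRBC1 (ENSG00000211751, chr7:142791694-142793368), the constant gene nearest to the first J cluster, had the most counts of the receptor genes and was found in all 36 Jurkat cells. With kit #634413 the wells held 1 to 543 estimated counts with a median of 267, or 0.726, 274 and 528 CPM for the lowest, median and highest well. With kit #634444 they held 22 to 416 counts with a median of 203, or 23.7, 238 and 520 CPM. Apart from well 15 of kit #634413, which held 1 count, all Jurkat wells had at least 22 counts. The summed level was 249 CPM [242, 256; 95% Poisson interval] with kit #634413 and 236 CPM [228, 244] with kit #634444, and the standard deviation between cells was 164 and 121 CPM.

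In A375, TRBC1 was at 0 in 41 of 42 wells, and well 20 of kit #634413 held 36 counts (50.7 CPM). That value lies under the lowest well but 1 in Jurkat with kit #634413 (51.8 CPM) and above the 2 lowest wells with kit #634444. The same A375 well had 1 of the 9 T cell markers outside the receptor genes, at 9.87 CPM (other wells 0 to 32.3), and 6 of 12 melanoma markers at 578 CPM (0 to 1899), and it held no other receptor gene. With this well included, TRBC1 was 125-fold higher in Jurkat with kit #634413, and without it at least 1444-fold higher. With kit #634444, where no A375 count was seen, it was at least 1166-fold higher against a floor of 3 counts over the group.

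TRBC2 (ENSG00000211772, chr7:142801041-142802748), the constant gene behind the second J cluster, was detected in 17 of 18 Jurkat cells with each kit and in no A375 well. Its summed level was 46.8 CPM [43.7, 50.1] with kit #634413 (lowest well 0, median 30.0, highest 195) and 64.2 CPM [60.1, 68.4] with kit #634444 (0, 32.4 and 300). It was at least 283-fold and 317-fold higher than in A375. Well 16 of kit #634444 held 369 of the 923 counts there, and without it the level was 42.1 CPM. TRBC1 took 84.2% [83.2, 85.1; 95% exact binomial interval] of the beta constant counts with kit #634413 and 78.7% [77.4, 79.9] with kit #634444. In single cells this share had a median of 90.0% and a range of 2.27% to 100% with kit #634413, and a median of 86.0% and a range of 42.4% to 100% with kit #634444.

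TRBC2 exceeded TRBC1 in 4 Jurkat cells. In kit #634413 these were well 9 (156 counts of TRBC1 and 170 of TRBC2) and well 15 (1 and 43), and in kit #634444 well 13 (22 and 27) and well 18 (29.2 and 39.8). Wells 15 and 18 also had under 1 count of TRBV12-3 and of TRAC, whereas wells 9 and 13 had 124 and 11 counts of TRBV12-3 and 64 and 60 counts of TRAC. The T cell markers outside the receptor genes lay within the range of the other wells in all 4, at 903, 1067, 1342 and 1280 CPM in that order. Well 18 had the highest sum of melanoma markers of its group (235 CPM, others 19.5 to 220) and well 13 the highest sum of B cell, NK and monocyte markers (95.2 CPM, others up to 90.6), and their part in these values was not tested.

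TRAC (ENSG00000277734, chr14:22547506-22552156), the single alpha constant gene, was detected in 12 of 18 Jurkat cells with each kit (66.7% [41.0, 86.7]) and in none of 42 A375 wells, where a count of 0 allows a share of up to 7.14% by the limit of 3 wells (up to 9.09% over the 33 deeper wells). The upper bounds of the exact binomial interval are 8.41% and 10.6%. With kit #634413, 6 wells had no count, 6 had 1 to 4 and 6 had 54 to 312. With kit #634444, 6 wells had no count, 1 had 2 and 11 had 12 to 270. The summed level was 46.7 CPM [43.6, 49.9] with kit #634413 (median well 3.21, highest 283) and 63.0 CPM [59.0, 67.3] with kit #634444 (median well 21.8, highest 366), at least 282-fold and 311-fold above A375. The standard deviation between cells, 92.5 and 91.2 CPM, exceeded the mean of 50.5 and 62.7 CPM in both kits.

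Wells without TRAC had a higher median total than those with it in kit #634413 and a lower one in kit #634444. The part of depth in the absence of TRAC was not tested. With kit #634413 the totals of the wells without it ran from 827779 to 1443975 counts (median 1109380), against 413959 to 1313483 (median 908424) in the wells with TRAC. With kit #634444 the wells without TRAC ran from 562544 to 1232381 (median 694453), against 447397 to 1230313 (median 794849) in those with it. TRBC1 had a median of 238 CPM in the wells without TRAC and 274 CPM in those with it in kit #634413, and 328 and 200 CPM in kit #634444. The ranges of TRBC1 overlapped in both kits.

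**Figure D2:**
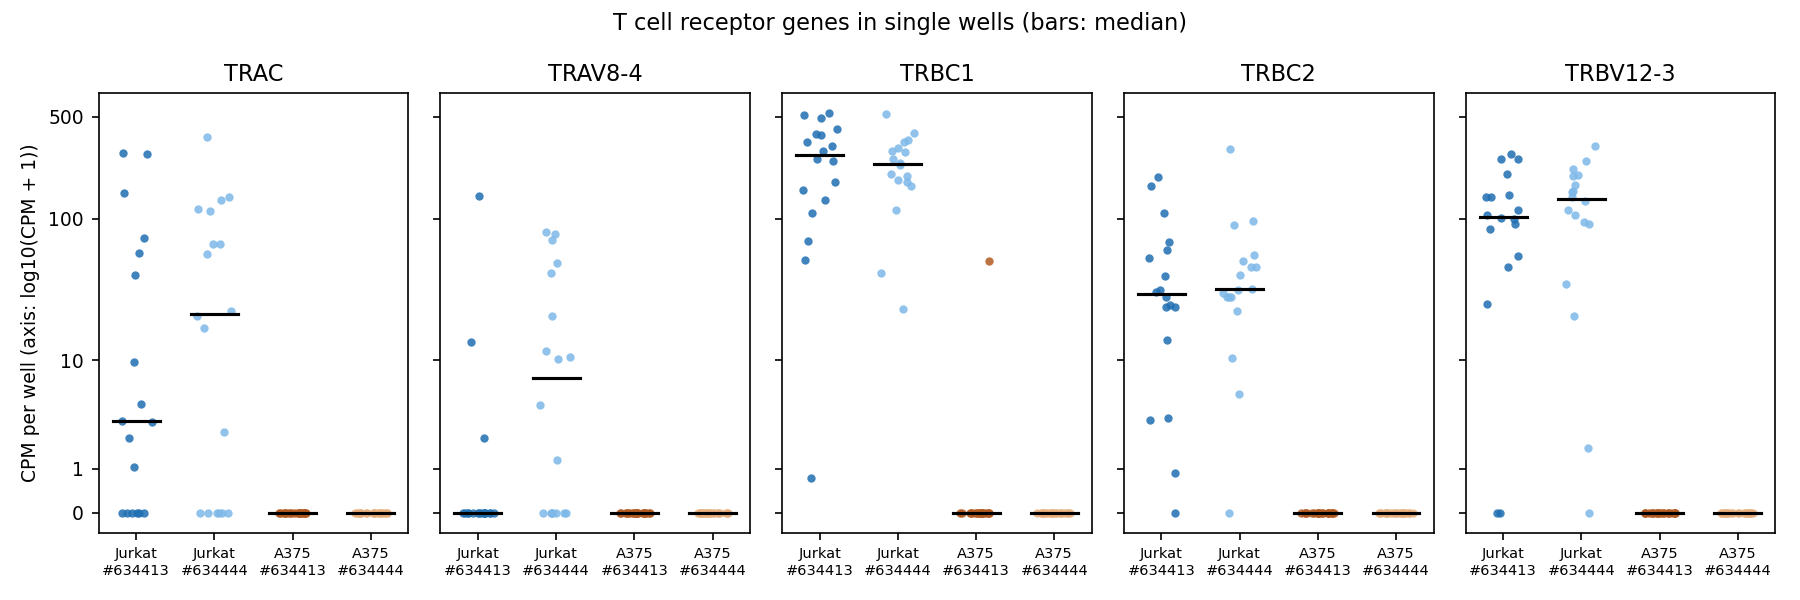
Constant genes and leading V genes by group. Each point is 1 well, the vertical axis is CPM drawn as log10(CPM + 1), and black bars are medians. TRBC1 lies above 0 in all 36 Jurkat wells and in 1 A375 well, TRBV12-3 in 33 Jurkat wells with at least 1 count, and the other 4 genes are at 0 in all 42 A375 wells.

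TRBV12-3 (ENSG00000274752, chr7:142560423-142560931) was the leading beta V gene. It was detected in 16 of 18 Jurkat cells with kit #634413 (88.9% [65.3, 98.6]) and in 17 of 18 with kit #634444 (94.4% [72.7, 99.9]), and in no A375 well. The detected wells held 23 to 283 counts in the first kit and 1 to 264 in the second. The summed level was 117 CPM [112, 122] (median well 104, highest 279) and 131 CPM [125, 137] (median well 138, highest 314), at least 704-fold and 647-fold above A375. TRBV12-4, which shares much of its sequence with TRBV12-3, received 1.1 and 4 counts, in 1 cell of each kit.

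TRBV12-3 made up 89.7% [88.4, 90.9] of all TRBV counts in Jurkat with kit #634413 and 86.1% [84.6, 87.5] with kit #634444. It had the most counts of all TRBV genes in 16 cells of each kit, and was the sole TRBV gene with counts in 9 and 4 cells. Without well 8 the share in kit #634413 was 90.2%. The cells with 1 count of it or less still had beta constant counts. Well 7 of kit #634413 had 92 counts of TRBC1, 54 of TRAC and no TRBV gene, and well 15 had TRBC2 and no TRBV gene. In kit #634444 well 12 held 1 count of TRBV12-3 beside 219 of TRBC1. Well 18 was given under 1 count of TRBV12-3 (1.74e-05), 4 counts of TRBV12-4 and 11 of TRBV7-2. The quantifier divides reads shared by TRBV12-3 and TRBV12-4, so these values do not show which of them well 18 held.

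The other TRBV genes were lower and were spread over fewer cells. TRBV7-2 was found in 4 and 10 cells (104 and 125 counts, highest well 30 and 31) and TRBV7-3 in 3 and 5 cells (81 and 60 counts, highest well 72 and 29), and both were at 0 in A375. TRBV28 was found in 1 and 5 cells (8 and 87 counts). Counted from the start of TRBV12-3, with upstream negative, TRBV7-2 starts at -207604, TRBV7-3 at -176094 and TRBV28 at 160237 bases. In well 1 of kit #634413 TRBV7-3 reached 72 counts beside 93 of TRBV12-3, and in well 1 of kit #634444 TRBV28 reached 51 beside 194.

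**Figure D3:**
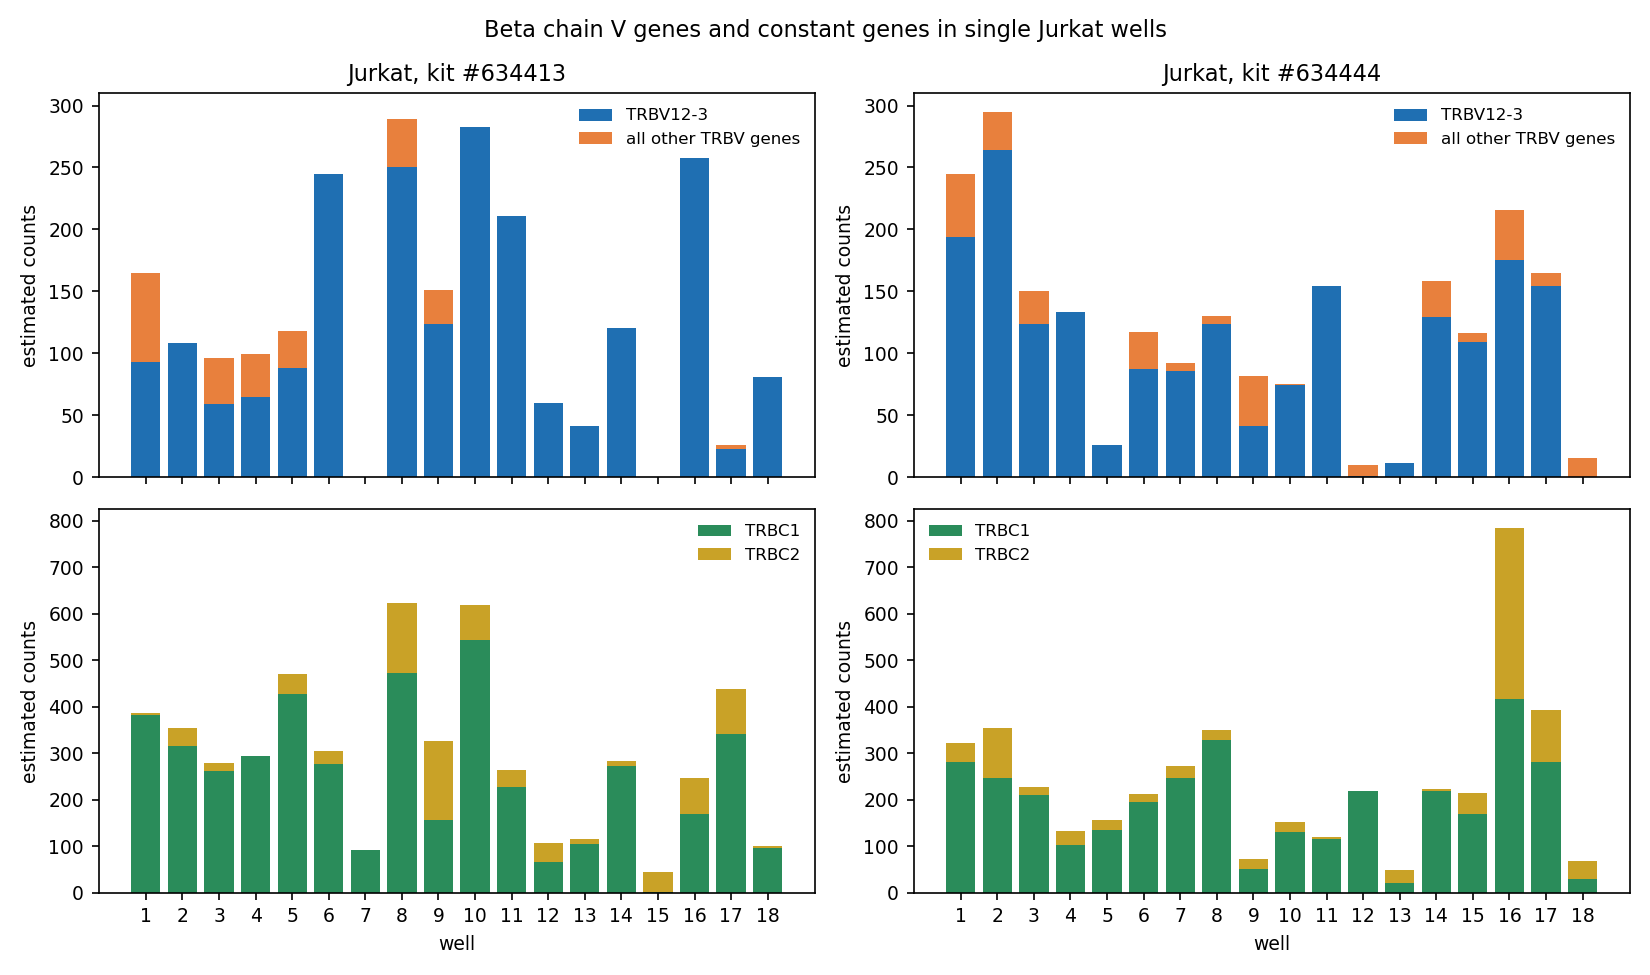
Beta chain counts in each Jurkat well. Top, estimated counts of TRBV12-3 (blue) and of all other TRBV genes (orange). Bottom, TRBC1 (green) and TRBC2 (yellow), for the 18 wells of each kit. TRBV12-3 fills most of the upper bars except in wells 7 and 15 of kit #634413 and wells 12 and 18 of kit #634444, and TRBC2 exceeds TRBC1 in 4 wells.

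TRAV8-4 (ENSG00000211790, chr14:21894433-21895030) had the most counts of the alpha V genes over both kits. It was detected in 3 of 18 Jurkat cells with kit #634413 (16.7% [3.58, 41.4]) and in 11 of 18 with kit #634444 (61.1% [35.7, 82.7]), and in none of the 42 A375 wells. In kit #634413 the 3 wells had 158, 16 and 2 counts, and in kit #634444 the 11 wells had 1 to 88. The summed level was 9.72 CPM [8.34, 11.3] and 21.6 CPM [19.3, 24.1], at least 58.7-fold and 107-fold above A375. The 2 binomial intervals of the detected share overlapped, and kit differences rest on 1 sample per kit.

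TRAV8-4 made up 51.2% [45.7, 56.6] of TRAV counts with kit #634413 and 89.9% [86.2, 92.9] with kit #634444. Without well 8, whose TRAV counts came from other genes, the share in kit #634413 was 87.1%, and without well 10, which held 158 of the 176 TRAV8-4 counts, it was 9.68% and the level 1.06 CPM. The order of TRAV genes in kit #634413 thus rests on single cells, whereas in kit #634444 TRAV8-4 led in 11 of the 12 cells with a TRAV gene. TRAV17 and TRAV16, the next most abundant TRAV genes, were seen in well 8 alone. The remaining TRAV genes had 26 or fewer counts per kit, and TRAV18, named here after its values were seen, was found in 2 cells of each kit.

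Per length, the beta chain was more abundant than the alpha chain. On the TPM scale, which divides counts by the effective length of each target, mean TRBC1 over wells was 279 TPM and mean TRAC 38.0 TPM with kit #634413, a ratio of 7.33. With kit #634444 the means were 248 and 46.6 TPM, a ratio of 5.32. The V genes differed by more, with TRBV12-3 at 328 TPM against TRAV8-4 at 20.2 TPM (ratio 16.3) and 366 against 44.9 TPM (ratio 8.15). Well 10 of kit #634413 carried most of the TRAV8-4 level there, and without it the means were 303 and 2.13 TPM (ratio 142). Within the beta chain TRBV12-3 and TRBC1 were within a factor of 1.47 of each other, and within the alpha chain TRAV8-4 was at 0.530 and 0.963 of TRAC, the former 0.0779 without well 10. The targets are germline segments and hold no V-J junction.

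All cells with TRAC also had TRBC1, which was found in all 36 Jurkat cells, so the number with both is that of TRAC. TRAC and TRBC1 were both detected in 12 of 18 cells of each kit, and the other 6 had TRBC1 without TRAC. TRAC, TRAV8-4, TRBC1 and TRBV12-3 were all detected in 3 of 18 cells with kit #634413 and in 10 of 18 with kit #634444 [30.8, 78.5]. All 3 cells with TRAV8-4 in kit #634413 had TRAC, as did 10 of 11 in kit #634444. As a description over the 18 cells of a kit, whose CPM values share the well total, Spearman's rho between TRAC and TRBC1 was 0.27 (Pearson's r 0.45) with kit #634413 and -0.35 (-0.21) with kit #634444. Between TRBV12-3 and TRBC1, 2 targets of the same chain, rho was 0.45 and 0.37, and between TRAV8-4 and TRAC it was 0.37 and 0.68.

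The beta J genes with most counts lay downstream of TRBJ1-2. TRBJ1-3, which starts 613 bases downstream, was detected in 6 and 8 cells (51 and 58 counts), and TRBJ1-4, at 1208 bases, in 6 and 12 cells (97 and 166 counts). TRBJ1-5, at 1481 bases, was detected in 4 cells of each kit with 94 and 12 counts, and of the 94 counts 62 came from well 1 and 25 from well 8. TRBJ1-2 itself had 46 counts in 5 cells of kit #634413, 33 of them in well 1, and none in kit #634444. The 4 genes downstream of it within the first cluster summed to 246 and 265 counts, and TRBJ1-1, 137 bases upstream, had 1 count, in well 8.

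The second cluster, between TRBC1 and TRBC2, had 99 counts over 5 of 8 genes in kit #634413, of which 57 remained without well 8, and 19 counts over 3 genes in kit #634444. All 14 TRBJ genes were at 0 in all 42 A375 wells. A count in a J target does not tell a joined from an unjoined segment, and the targets, 46 to 69 bases long, hold no junction. The counts therefore do not rank the J genes by their use in the joined beta chain.

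**Figure D4:**
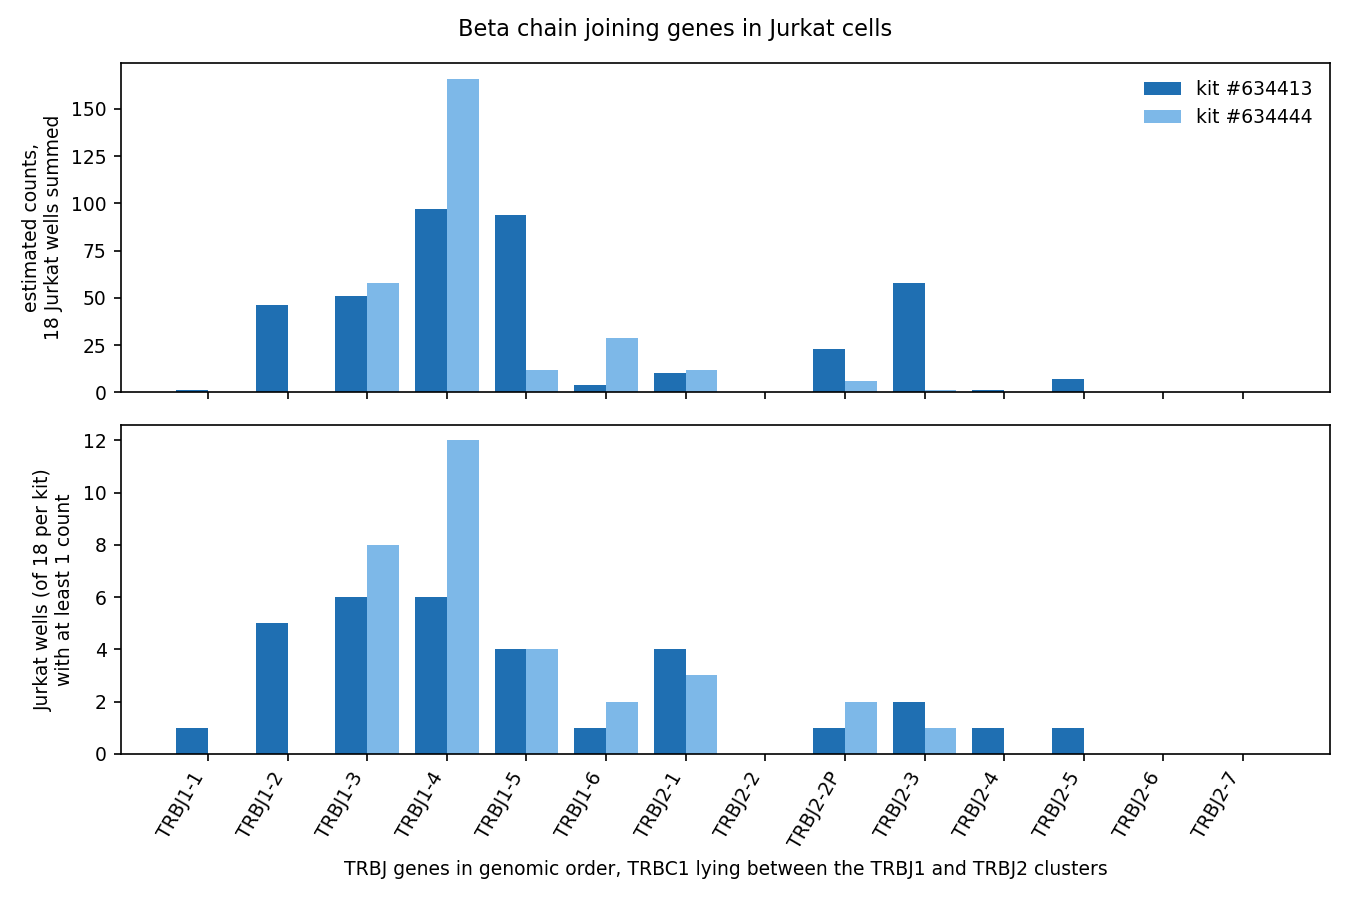
Beta J genes in genomic order. Top, estimated counts summed over the 18 Jurkat wells of each kit. Bottom, the number of those wells with at least 1 count. TRBJ1-4 has the highest bars with kit #634444 (166 counts, 12 wells), TRBJ1-1 has 1 count, and TRBJ1-2 has bars with kit #634413 alone.

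Alpha J genes were sparse. TRAJ3 had 3 counts in 3 cells of kit #634413 and 3 counts in 2 cells of kit #634444. In kit #634413 the TRAJ genes summed to 83 counts, and without well 8 the 3 counts of TRAJ3 were all that remained. In kit #634444, TRAJ1 had 1 count besides. In A375, TRAJ32 had 8 counts in 1 well, and no other TRAJ gene was seen.

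Gamma and delta genes were low. The gamma constant gene TRGC2 was detected in 2 and 3 Jurkat cells (8 and 19 counts), and TRGC1 and the delta constant gene TRDC were at 0 in all 78 wells. Of the gamma V genes, TRGV3 had 76 counts in 2 cells of kit #634444 (49 and 27) and none in kit #634413, TRGV5 had 19 counts in 1 cell and 1 count in another, and TRGV8 had 4 and 3 counts in 1 cell of each kit. TRGJ1 and TRGJ2 each received 0.5 counts in Jurkat, together 1 count. Of the 31-base words of TRGC2 and TRGC1, 37.5% and 65.3% occurred in no other GENCODE gene. The shares were 41.0% for TRGV3, 52.9% for TRGV5, 90.4% for TRGV8 and 0% for TRGJ1 and TRGJ2. The split of counts between gamma genes is thus an estimate of the quantifier. TRDV3 had 106 counts, all in well 4 of kit #634413, which also held TRAV8-4 (16 counts) and TRAC (68).

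Of the receptor genes seen in A375, none but TRBC1 reached 10 counts in a well. The others were TRAJ32 (8 counts), TRAV26-1 (5), TRAV27 (1 and 4), TRBV5-5 (3), TRBV17 (2) and TRGV9 (2), in 6 wells, and TRAV27 with 4 counts was in a well with a total of 80958. For TRAV27 and TRGV9, which were also seen in Jurkat, the Jurkat counts were 1 and 6 in 1 cell each.

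Between kits, the levels of TRBC1 and TRBV12-3 in Jurkat differed least among the constant genes and leading V genes. The ratio of kit #634444 over kit #634413 was 0.9498 [0.908, 0.994] for TRBC1, 1.12 [1.06, 1.20] for TRBV12-3, 1.37 [1.25, 1.504] for TRBC2, 1.35 [1.23, 1.48] for TRAC and 2.22 [1.84, 2.69] for TRAV8-4, where the intervals cover counting error only. For all 5 genes the difference between kits was smaller than the standard deviation between cells of a kit, which does not measure the error of a summed level. Single cells moved the ratios. For TRAV8-4 it was 20.4 without well 10 of kit #634413. For TRAC it was 2.01 without that well and 0.999 without well 5 of kit #634444. For TRBC2 it was 0.899 without well 16 of kit #634444. Genes with few counts showed ratios on both sides of 1, such as 0.932 for TRBV7-3 (81 and 60 counts), 13.7 [6.64, 32.7] for TRBV28 (8 and 87 counts) and 0.161 [0.0801, 0.294] for TRBJ1-5 (94 and 12 counts). Well 1 of kit #634413 held 72 of the 81 TRBV7-3 counts and 62 of the 94 TRBJ1-5 counts, and without it the ratios were 7.96 and 0.448. Without well 1 of kit #634444 the ratio of TRBV28 was 6.07.

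The CD3 chains and CD247 were detected in nearly all Jurkat cells. CD3D, CD3E and CD3G, which pair with the receptor chains, were detected in 18 of 18 cells with each kit, and CD247, the zeta chain, in 17 and 18. In kit #634413 their mean TPM was 155, 136, 182 and 33.7, and in kit #634444 it was 207, 143, 162 and 43.97. Mean TRBC1 was above each, by 1.20 to 8.26 times, and TRAC was under CD3D, CD3E and CD3G. TRAT1, a receptor-associated adaptor, was found in 9 and 15 cells, and PTCRA, the pre-T alpha chain that stands in for alpha in immature thymocytes, in 3 and 1 cells with 8 and 4 counts. All 5 of these genes with at least 10 counts were past 4-fold higher in Jurkat in each kit, where 14.6% and 12.7% of all genes tested were, and most reached that minimum through Jurkat alone.

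Genes of the recombination machinery were also detected. DNTT, the terminal transferase that adds bases at the junctions, was found in 18 and 16 Jurkat cells at 334 and 164 CPM and in no A375 well. RAG2, a subunit of the recombinase, was found in 6 and 11 cells at 11.5 and 14.4 CPM (5.77 and 8.60 CPM without the cell with most counts in each kit) and was at 0 in A375. RAG1, the other subunit, was found in 2 and 6 Jurkat cells at 5.30 and 54.5 CPM and in 1 and 6 A375 wells at 2.54 and 3.99 CPM, a ratio of 2.09 in kit #634413 and 13.7 in kit #634444. Single cells carried these values, since well 5 of kit #634413 held 95 of 96 RAG1 counts and well 3 of kit #634444 held 535 of 784. Without well 5 the ratio in kit #634413 was at most 0.0684. All 46 A375 counts of that kit came from 1 well too, so the direction there rests on single wells of both lines. In kit #634444 the ratio was 4.60 without well 3. The 7 end-joining genes, which close breaks in all cell types, had 1 member past 4-fold higher in kit #634413, DCLRE1C at 4.22-fold (3.48-fold without well 6), and none in kit #634444, against 14.6% and 12.7% of all genes tested.

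All 6 transcription factors known to act at the receptor loci or in T cell commitment were past 4-fold higher in Jurkat in both kits, where 14.6% and 12.7% of all genes tested were. TCF7 stood at 742 and 758 CPM in Jurkat and 2.98 and 2.77 CPM in A375, and BCL11B at 264 and 321 CPM with none in A375. RUNX1 was closest to the threshold, 4.41-fold and 4.66-fold higher. Of the coreceptors, CD4 was detected in 9 Jurkat cells of each kit at 17.02 and 23.6 CPM, CD8A in 2 and 1 cells (8 and 13 counts) and CD8B in none and 3. In A375, CD4 was detected in 1 well of each kit (26 counts and 1 count). There CD8A was seen in 1 well of kit #634444 alone (3 counts), and CD8B in none.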

How the data were processed

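Total RNA of 78 FACS-sorted single cells was sequenced paired-end. The authors trimmed the reads and quantified them with Kallisto 0.43.1 in stranded mode against Ensembl and ERCC spike-in transcripts (STAR 2.5.3 and hg38 are also named in the processing notes). They deposited 1 table per cell with estimated counts, which are not normalized and need not be whole, and TPM values, which are scaled to effective length and have the same sum in every cell.

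Here the estimated counts were summed per gene with GENCODE v44 (hg38 too), to which 195850 of the 200206 Ensembl targets matched, and the lengths of 193 of 195 receptor genes were equal. ERCC targets were left out of totals. Depth ran from 909 to 2567265 estimated counts per cell. No label names cultures, so each group was 1 sample and no test was run: sums have exact Poisson and shares exact binomial 95% intervals. A fold is the ratio of summed CPM, with a group under 3 counts set to 3. The fold step was run on simulated data for Jurkat against A375 over 62913 genes. Counts were drawn as Poisson counts from 1 mean per gene, and 200 genes with at least 200 counts were changed 8-fold. It recovered 200 of 200 changed genes in each kit and called 15 of 23610 unchanged genes in kit #634413 and 31 of 24876 in kit #634444. The real wells varied more than Poisson counts and most receptor genes had fewer counts, so these rates do not carry over to the values above.

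Genes were named by rule: the C genes, genes with at least 1 count in 25% of the wells of any group, and the 3 V and 3 J genes with most counts per locus. Other TRAV, TRBV, TRBJ and A375 genes were named after their values were seen, as were the wells that stand apart. Members and lists were chosen with earlier results of these data known. Counting minimum, thinning, scale, left-out wells and thresholds were varied. Python 3.11.15, pandas 2.3.3 and scipy 1.17.1 were used.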

Additional observations from a re-analysis of the deposited data

Results flagged for a closer look

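T cell receptor pseudogenes, which are not receptor gene segments by biotype and enter no comparison above, had counts in Jurkat that stood above those of A375. The 37 V and J pseudogenes among the targets summed to 190 counts in 8 of 18 Jurkat cells with kit #634444, against 1 count in 1 of 21 A375 wells of that kit. With kit #634413 they summed to 1 count in Jurkat and 0 in A375. TRBV8-2 held 118 of the 190 counts, in 4 cells, TRGV7 held 32 in 3 cells, TRGV5P 23 in 1 cell and TRBV8-1 14 in 1 cell. The difference between kits rests on 1 sample per kit and was not tested.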

How the results depend on the processing

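Of 61 alternative values for the comparisons, 54 stayed within their limit and 7 moved. The limit was the exact binomial interval for numbers of wells, the standard deviation between cells for shares and 1.5 times for counts of genes. No value was checked for a reversed direction, and a value within its limit can still differ much. With at least 10 counts required, TRAC and TRBC1 were found together in 6 rather than 12 cells of kit #634413 (the numbers for TRAC alone). By that minimum 0 A375 wells of kit #634444 held a receptor gene. With 10-fold in place of 4-fold, 1823 and 1151 genes in all were higher in Jurkat with kit #634413 and #634444, and 11 receptor genes with kit #634444. With at least 50 counts required, 1737 genes and 11 receptor genes were higher with kit #634444. Leaving out well 8 of kit #634413, chosen after seeing the data, raised the TRAV8-4 share there from 51.2% to 87.1%, and leaving out the well with most TRAV8-4 counts lowered it to 9.68%, both within the wide spread between cells. Adding V pseudogenes to the denominator and leaving out the wells with more TRBC2 than TRBC1, also chosen after seeing the data, moved no share by more than its spread between cells. Of 99 alternative values for single genes, 19 moved, 9 of them kit ratios without the well with most counts of the gene, a choice made after seeing the data, and among the others the kit ratio of TRAC, whose log2 value was 0.43 on summed CPM and 2.76 on the median cell. With every well thinned to 155756 counts, the number of cells with each of the 5 leading genes stayed within its binomial interval, with TRAC in 8 and 11 cells. No paired analysis was possible because the labels give no replicate numbers and no tests were run. Depth limits the genes with few counts, where a count of 0 cannot be told from a low level.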
